A study of Arabidopsis thaliana with 18 samples.

Results

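The response of dwf4 roots to brassinolide (BL), the most active brassinosteroid, was measured in 4 of the 18 RNA-sequencing libraries of an Arabidopsis thaliana series. BL-treated dwf4 (2 libraries, 100 nM BL for 4 h) was set against untreated dwf4 (2 libraries). dwf4 is a mutant, in the Col-0 background, of the DWF4 gene for an enzyme of brassinosteroid synthesis, and the labels do not name its allele. Untreated wild-type Col-0 (2 libraries) was sequenced with the same 36 bp reads, and BL-treated and mock-treated Col-0 (2 libraries each, 100 nM BL or mock solution for 4 h) were sequenced with 101 bp reads. All seedlings were 7 days old, had grown under continuous light, and gave RNA from the tip section of the root. No mock-treated dwf4 was analysed, so in dwf4 the hormone and the handling cannot be told apart. Of 33602 loci listed, 19558 passed the low-count filter and were tested. Of the other 14044, 9306 had no read in any of the 4 dwf4 libraries.

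Brassinosteroids are steroid hormones of plants that bind the receptor kinase BRI1 at the cell surface. Receptor activity inactivates the kinase BIN2, and the transcription factors BZR1 and BES1 then enter the nucleus and raise or lower their target genes. Among the known targets are the genes of brassinosteroid synthesis, which the hormone represses. In root tips the hormone is known to act on cell elongation, on the size of the meristem and on the balance between dividing and maturing cells.

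Counts assigned to genes ranged from 11764200 to 13690662 in the 4 dwf4 libraries. Across loci, log2 CPM (counts scaled to library size, here with TMM factors) correlated at r = 0.991 between the 2 BL-treated libraries and at r = 0.988 between the 2 untreated ones. The untreated pair differed more. Of 13063 loci with a mean of at least 10 CPM, 19 differed over 2-fold between the BL-treated libraries and 102 between the untreated libraries, 82 of these being higher in untreated replicate 2. The summed level of 18 tested jasmonate genes was 1308 and 746 CPM in BL-treated dwf4, against 641 and 1155 CPM in untreated dwf4 and 449 and 444 CPM in untreated wild type. BL-treated replicate 1 and untreated replicate 2 were thus the high ones, and the part of this in any result was not tested. Nothing in the labels says that paired libraries were grown apart, so the p-values measure the spread between libraries of a group, which may be technical. That spread was estimated in a fit that also held the 2 untreated wild-type libraries, a pair that correlated at r = 0.994. Chi-square per degree of freedom between the 2 libraries was 2.02 for wild type, 3.98 for BL-treated dwf4 and 5.75 for untreated dwf4. The wild-type pair, which differed least, lowers the shared estimate, so the dwf4 p-values may be too small. Among genes known from root cell types, all 14 root hair genes, 8 of 9 Casparian strip genes and all 12 xylem genes passed the filter. So did all 10 photosynthesis genes, so passing this low filter does not by itself mark a cell type. A transcript is still made in dwf4, with 24.5 and 24.0 CPM of DWF4 after BL, 47.6 and 48.5 CPM without treatment and 49.8 and 51.9 CPM in untreated wild type, so its level does not check the genotype.

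Between the dwf4 groups, 2602 of the 19558 loci (13.3%) differed at an adjusted p under 0.05 (edgeR quasi-likelihood test, Benjamini-Hochberg over all tested loci). Without mock-treated dwf4, these differences hold any effects of BL and of handling together. Of the 2602 loci, 1537 rose with BL treatment (7.86% of those tested) and 1065 fell (5.45%). The estimate of spread drew on the untreated wild-type libraries too, and with the 4 dwf4 libraries alone 1560 of 19388 loci were called. Most changes were modest: the median size among called loci was 0.51 on the log2 scale, and 448 loci (2.29%) passed 2-fold, 254 upward (1.30%) and 194 downward (0.992%). All 2602 had BL-treated and untreated values that did not overlap, as did 56.3% of all loci tested. The share called grew with the level of the locus, being 4.96% under 2 CPM and 26.3% above 100 CPM. The call count was 1323 without BL-treated replicate 1 and 1392 without BL-treated replicate 2. Root tips hold many cell types, and fewer cells of a type and less RNA per cell cannot be told apart in these bulk libraries.

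**Figure D1:**
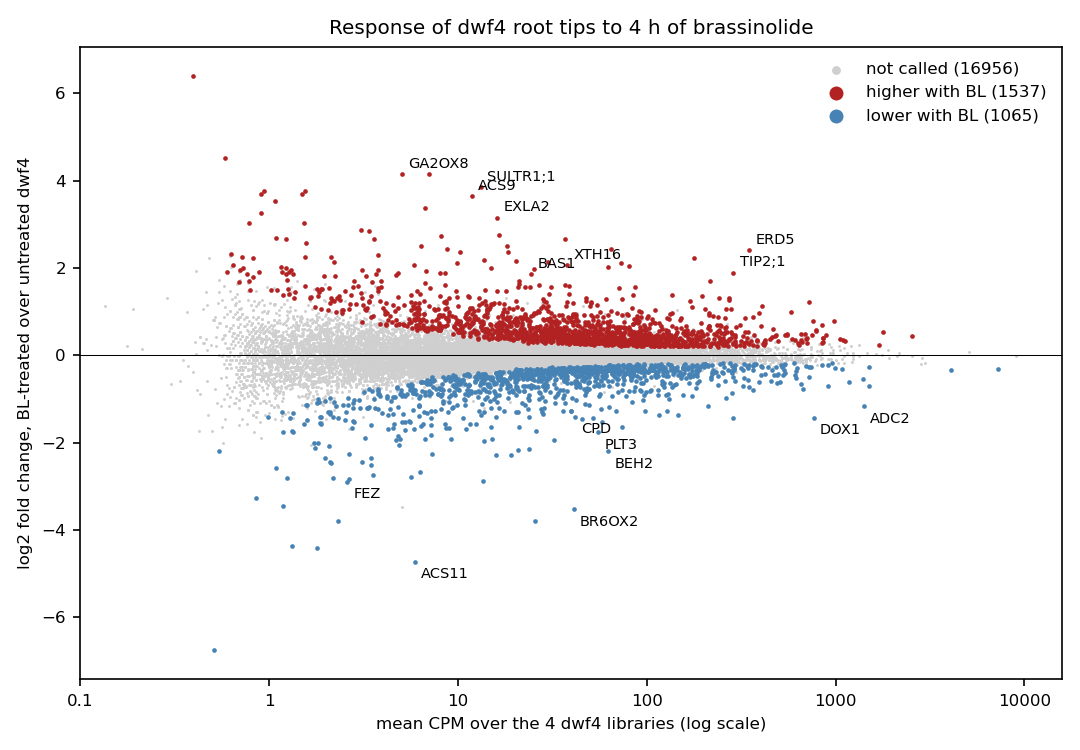
Log2 fold change of BL-treated over untreated dwf4 (y axis) against mean CPM over the 4 libraries (x axis, log scale), 1 point per tested locus. Red points are the 1537 loci that were higher and blue points the 1065 that were lower with BL. Grey points did not pass the test. ACS11, BR6OX2, FEZ and BEH2 lie far below the line, and GA2OX8, SULTR1;1, ACS9 and EXLA2 far above it.

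The promoters of 4 genes are printed as examples, chosen because they hold letters that BZR1 is known to bind. They show how these letters sat before genes that fell, did not pass the test or rose. Each is the 250 bases before the annotated gene start in TAIR10.1 (RefSeq), 5′ to 3′ on the gene's strand. Capitals mark the hexamers searched on both strands, CGTGTG and CGTGCG (brassinosteroid response elements) and CACGTG (the G-box), which may overlap. A match on the other strand reads CACACG or CGCACG. BEH2, a BZR1 family gene that fell, has its window at chr4:17334356-17334605 on the minus strand. The windows on the plus strand are chr4:4886712-4886961 for ACS11, an ethylene synthesis gene that fell, chr1:28185254-28185503 for BZR1, which did not pass the test, and chr3:5263751-5264000 for IAA19, an auxin response gene that rose.
BEH2: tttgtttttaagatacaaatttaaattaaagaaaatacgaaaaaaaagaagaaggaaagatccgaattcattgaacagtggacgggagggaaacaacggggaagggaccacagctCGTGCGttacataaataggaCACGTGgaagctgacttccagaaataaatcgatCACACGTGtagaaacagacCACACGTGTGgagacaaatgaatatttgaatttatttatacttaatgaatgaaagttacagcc
ACS11: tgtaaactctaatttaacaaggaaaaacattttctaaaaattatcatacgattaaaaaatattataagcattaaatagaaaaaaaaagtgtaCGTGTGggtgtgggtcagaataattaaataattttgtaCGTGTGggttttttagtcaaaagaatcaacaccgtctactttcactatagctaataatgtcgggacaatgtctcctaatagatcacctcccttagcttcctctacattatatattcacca
BZR1: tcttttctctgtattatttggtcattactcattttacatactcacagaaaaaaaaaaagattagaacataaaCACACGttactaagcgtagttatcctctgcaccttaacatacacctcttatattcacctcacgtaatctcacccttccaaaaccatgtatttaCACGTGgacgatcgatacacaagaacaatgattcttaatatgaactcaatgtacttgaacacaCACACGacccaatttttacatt
IAA19: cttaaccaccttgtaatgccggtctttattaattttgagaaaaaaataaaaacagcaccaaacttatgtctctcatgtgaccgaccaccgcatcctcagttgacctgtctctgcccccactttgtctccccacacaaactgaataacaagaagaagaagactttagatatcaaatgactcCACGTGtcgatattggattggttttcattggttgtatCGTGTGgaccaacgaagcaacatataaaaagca

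BEH2 held 3 CGTGTG, 1 CGTGCG and 3 CACGTG, all within the last 135 bases, and some of these overlapped. ACS11 held 2 CGTGTG, and so did BZR1, along with 1 CACGTG. IAA19 held 1 CGTGTG and 1 CACGTG. The synthesis genes that fell, DWF4, CPD, CYP90D1, BR6OX2 and DWF1, held none of these hexamers in the same window. Nor did most of the other large fallers, namely DES-1-LIKE, FEZ, MYB55, EXPA10, HB4, ARR3, NPC2, BGAL7 and RTFL15. Over all loci, CGTGTG or CGTGCG stood in 12.4% of 1056 promoters of genes that fell (95% Wilson interval 10.6% to 14.5%), 6.24% of 1522 promoters of genes that rose (5.13% to 7.57%), and 7.05% of all 19124 promoters of tested loci. Among loci past 2-fold the shares were 18% of 194 fallers and 4.86% of 247 risers. For CACGTG they were 10.8% of fallers, 6.83% of risers and 7.28% of all. The shares are descriptions with no test, and a match does not show binding.

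Several genes of brassinosteroid synthesis fell. Of 14 synthesis genes, all tested, 5 fell and none rose. Over all tested loci 5.45% fell and 7.86% rose, together 13.3%. These are the shares to set beside each list count below. The summed level of the synthesis genes was 1562 and 1655 CPM in BL-treated dwf4, against 1958 and 1924 CPM in untreated dwf4. Untreated wild type had 1722 and 1761 CPM. BR6OX2, which catalyses the last steps to brassinolide, had 5.90 and 7.12 CPM in BL-treated dwf4, against 81.1 and 69.8 CPM in untreated dwf4 (log2 fold change -3.53, SE 0.126, adjusted p = 8.41e-06). Untreated wild type had 24.4 and 27.2 CPM, so BL-treated dwf4 lay below wild type and untreated dwf4 above it. CPD, a cytochrome P450 of the pathway, had 23.0 and 22.5 CPM in BL-treated dwf4, against 59.5 and 61.8 CPM in untreated dwf4 (log2 fold change -1.41, SE 0.0753, adjusted p = 2.81e-05), and wild type had 36.2 and 38.8 CPM, again between the other groups. CYP90D1, a hydroxylase of the pathway, had 36.6 and 31.6 CPM in BL-treated dwf4, against 82.5 and 76.8 CPM in untreated dwf4 (log2 fold change -1.23, SE 0.084, adjusted p = 0.000101).

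The DWF4 transcript had 24.5 and 24.0 CPM in BL-treated dwf4, against 47.6 and 48.5 CPM in untreated dwf4 (log2 fold change -0.99, SE 0.0717, adjusted p = 0.000126). DWF1, a sterol reductase that acts early, changed less, with 635 and 717 CPM in BL-treated dwf4, against 814 and 811 CPM in untreated dwf4 (log2 fold change -0.27, adjusted p = 0.0285). Its adjusted p was 0.117 without BL-treated replicate 1 and 0.0809 without untreated replicate 1. The other 9 synthesis genes did not pass the test, among them DET2, a steroid reductase (-0.34 on the log2 scale), BR6OX1, the sister of BR6OX2 (-0.43), and ROT3, the sister of CYP90D1 (-0.06). Of the 5 genes that fell, 4 encode cytochrome P450 enzymes of the hormone-specific steps, while the early sterol genes such as SMT1, HYD1 and DWF5 had log2 fold changes of -0.05, -0.02 and 0.02.

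Genes that inactivate brassinosteroids moved the other way. Of 4 tested members, 3 rose and none fell (2 of 6 were not tested). BAS1, a hydroxylase of the finished hormone, had 37.2 and 39.4 CPM in BL-treated dwf4, against 10.4 and 10.9 CPM in untreated dwf4 (log2 fold change 1.85, SE 0.0954, adjusted p = 2.74e-05). Its wild-type level was 16.6 and 15.2 CPM, between the dwf4 groups. SOB7, another cytochrome P450, had 48.5 and 51.3 CPM in BL-treated dwf4, against 24.1 and 31.0 CPM in untreated dwf4 (log2 fold change 0.86, SE 0.114, adjusted p = 0.00204). The BL-treated values stood next to the 48.3 and 51.7 CPM of wild type. BEN1, a reductase-like protein, had 59.8 and 54.8 CPM in BL-treated dwf4, against 33.5 and 44.2 CPM in untreated dwf4 (log2 fold change 0.56, adjusted p = 0.0174), a call that ended without BL-treated replicate 1 (adjusted p = 0.0972). BIA1, an acyltransferase, was at -0.16 on the log2 scale and did not pass the test.

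The main receptor transcript fell as well. BRI1 had 87.4 and 88.5 CPM in BL-treated dwf4, against 151 and 179.7 CPM in untreated dwf4 (log2 fold change -0.91, SE 0.0828, adjusted p = 0.000321). BRL3, a BRI1-like receptor of vascular cells, had 17.5 and 16.8 CPM in BL-treated dwf4, against 41.4 and 38.1 CPM in untreated dwf4 (log2 fold change -1.21, SE 0.084, adjusted p = 0.000104), and untreated dwf4 stood at the wild-type level of 38.7 and 37.2 CPM. The other 8 tested members of the receptor list had log2 fold changes between -0.44 for BKI1, an inhibitor of BRI1, and 0.28 for BSK1, a kinase downstream of it. The co-receptor gene BAK1 had 137 and 122 CPM in BL-treated dwf4, against 112 and 119 CPM in untreated dwf4, which missed the threshold (adjusted p = 0.148). BSK1 passed (0.0236), but not without BL-treated replicate 1 (0.0978), BL-treated replicate 2 (0.0825) or untreated replicate 1 (0.0698).

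Within the BZR1 family the members differed. BZR1 itself had 33.2 and 34.0 CPM in BL-treated dwf4, against 30.0 and 36.7 CPM in untreated dwf4, and its close relative BES1 had 52.9 and 48.2 CPM in BL-treated dwf4, against 51.1 and 48.7 CPM in untreated dwf4. Their log2 fold changes were 0.01 and 0.02, and neither passed the test. BEH2, another member, had 22.6 and 21.9 CPM in BL-treated dwf4, against 102 and 103 CPM in untreated dwf4 (log2 fold change -2.20, SE 0.0859, adjusted p = 1.19e-05). The 2 BL-treated values were nearly equal, as were the 2 untreated ones, and wild type lay between them at 60.1 and 51.9 CPM. BEH4 had 41.9 and 39.4 CPM in BL-treated dwf4, against 28.2 and 29.4 CPM in untreated dwf4 and rose (log2 fold change 0.50, SE 0.0757, adjusted p = 0.00396), with untreated dwf4 close to the 27.6 and 27.3 CPM of wild type. BEH1 was also called lower (log2 fold change -1.16, adjusted p = 0.0392) at 1.34 and 1.45 CPM in BL-treated dwf4, against 3.01 and 3.26 CPM in untreated dwf4, but its adjusted p was 0.156, 0.127, 0.0767 and 0.086 without BL-treated replicates 1 and 2 and untreated replicates 1 and 2 in turn. The kinase genes BIN2 (log2 fold change 0.27, adjusted p = 0.0232) and BIL1 (log2 fold change 0.25, adjusted p = 0.0287) were slightly higher. Neither call held without BL-treated replicate 1 (adjusted p 0.0708 for BIN2 and 0.132 for BIL1) or BL-treated replicate 2 (0.108 and 0.0842), nor did that of BIN2 without untreated replicate 2 (0.0693) or that of BIL1 without untreated replicate 1 (0.0822).

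**Figure D2:**
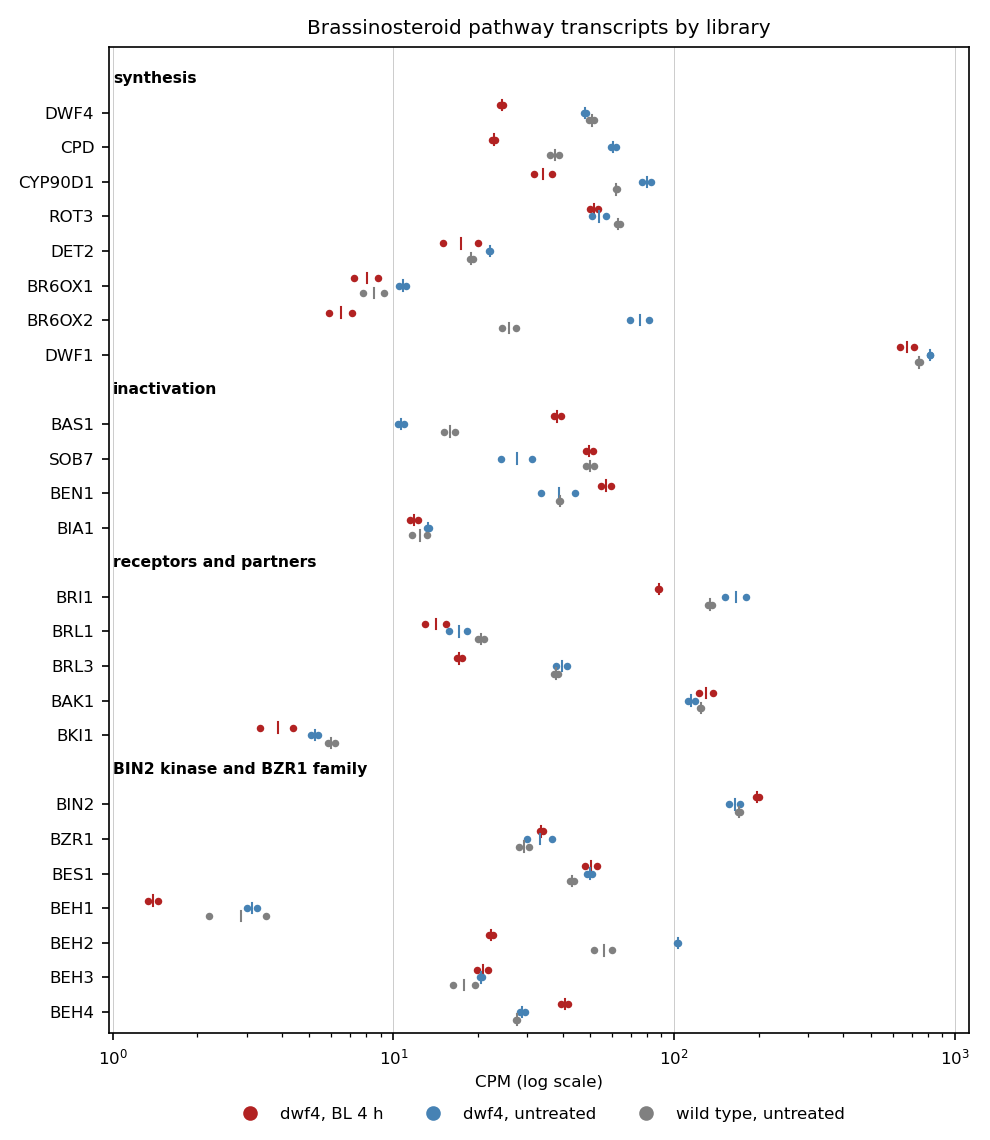
CPM (x axis, log scale) of genes of brassinosteroid synthesis, inactivation, perception and signalling in each library of BL-treated dwf4 (red), untreated dwf4 (blue) and untreated wild type (grey). Each point is 1 library and each bar the mean of 2. BR6OX2, CPD and BEH2 have wild type between the dwf4 groups, and BZR1 and BES1 show the dwf4 groups together.

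Among growth-related basic helix-loop-helix factors, 4 of 12 tested members rose and 2 fell. BEE1, known to be induced by brassinosteroids, had 2.52 and 3.27 CPM in BL-treated dwf4, against 0.0791 and 0.335 CPM in untreated dwf4 (log2 fold change 3.77, SE 0.501, adjusted p = 0.00206), a change from a level close to the limit of counting. AIF1, an atypical factor known to restrain growth, had 13.7 and 14.7 CPM in BL-treated dwf4, against 6.57 and 4.69 CPM in untreated dwf4 (log2 fold change 1.33, SE 0.165, adjusted p = 0.00149). Another growth inhibitor of the list, IBH1, went down, at 19.3 and 16.3 CPM in BL-treated dwf4 and 29.2 and 28.8 CPM in untreated dwf4 (log2 fold change -0.71, adjusted p = 0.00242). PRE3, a small factor that antagonises such inhibitors, had 43.5 and 46.1 CPM in BL-treated dwf4, against 82.9 and 88.8 CPM in untreated dwf4 (log2 fold change -0.94, SE 0.0721, adjusted p = 0.00016). AIF2 and PAR2 were called higher at 0.37 and 0.87 on the log2 scale. The calls ended for AIF2 without BL-treated replicate 2 (adjusted p = 0.158), untreated replicate 1 (0.0746) or untreated replicate 2 (0.0642), and for PAR2 without BL-treated replicate 1 (0.066), BL-treated replicate 2 (0.1) or untreated replicate 2 (0.0586).

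Auxin genes rose in several groups. Aux/IAA proteins are repressors that auxin induces and degrades. Of 25 tested genes, 14 rose and none fell, with a median log2 fold change of 0.65 against -0.01 over all tested loci, and 11 to 14 rose when any 1 of the 4 libraries was left out. IAA19 had 34.4 and 27.3 CPM in BL-treated dwf4, against 5.62 and 5.27 CPM in untreated dwf4 (log2 fold change 2.50, SE 0.174, adjusted p = 0.000106). IAA5 had 7.78 and 4.14 CPM in BL-treated dwf4, against 0.871 and 0.753 CPM in untreated dwf4 (log2 fold change 2.85, SE 0.392, adjusted p = 0.00242), its 2 BL-treated values standing well apart from each other and both above the untreated ones. IAA33 had 4.25 and 6.39 CPM in BL-treated dwf4, against 1.42 and 1.92 CPM in untreated dwf4 and IAA11 had 19.8 and 19.0 CPM in BL-treated dwf4, against 8.94 and 8.53 CPM in untreated dwf4, with log2 fold changes of 1.67 and 1.15. Added up, the Aux/IAA transcripts came to 1849.6 and 1741 CPM in BL-treated dwf4, against 1289.9 and 1246 CPM in untreated dwf4 and 1461 and 1478 CPM in untreated wild type.

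GH3 enzymes join auxin to amino acids. Of 6 tested genes, 5 rose and none fell. GH3.2 had 69.0 and 57.5 CPM in BL-treated dwf4, against 9.10 and 11.0 CPM in untreated dwf4 (log2 fold change 2.66, SE 0.129, adjusted p = 2.73e-05). GH3.3 had 12.6 and 9.01 CPM in BL-treated dwf4, against 1.58 and 2.26 CPM in untreated dwf4 (log2 fold change 2.49, SE 0.245, adjusted p = 0.000499), and wild type lay between at 4.65 and 4.93 CPM. GH3.1 and GH3.5 rose by 1.34 and 0.61 on the log2 scale. GH3.17 was called higher too, but not without BL-treated replicate 1, BL-treated replicate 2 or untreated replicate 2. For auxin synthesis, 6 of 9 genes rose and 1 fell. YUC3, a flavin monooxygenase of the last step, had 45.3 and 52.3 CPM in BL-treated dwf4, against 9.81 and 12.47 CPM in untreated dwf4 (log2 fold change 2.13, SE 0.124, adjusted p = 4.41e-05), and TAA1, the aminotransferase before it, had 32.9 and 38.1 CPM in BL-treated dwf4, against 18.203 and 17.7 CPM in untreated dwf4 (log2 fold change 0.98, SE 0.0983, adjusted p = 0.000521). YUC8 rose too, to 24.3 and 21.9 CPM in BL-treated dwf4, against 12.7 and 10.4 CPM in untreated dwf4. YUC6 was the gene called lower, at 13.7 and 12.8 CPM in BL-treated dwf4, against 20.3 and 18.7 CPM in untreated dwf4, with an adjusted p of 0.00972 that became 0.0621 without BL-treated replicate 2. The count of synthesis genes called higher was 3, 4, 3 and 5 without BL-treated replicates 1 and 2 and untreated replicates 1 and 2 in turn.

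Auxin carriers went both ways, 5 of 14 up and 2 down. PIN4, an efflux carrier of the stem cell region, had 19.3 and 22.7 CPM in BL-treated dwf4, against 54.5 and 46.9 CPM in untreated dwf4 (log2 fold change -1.27, SE 0.106, adjusted p = 0.000216). PIN3, an efflux carrier of the root cap, had 82.5 and 75.8 CPM in BL-treated dwf4, against 56.6 and 55.6 CPM in untreated dwf4, and the influx carrier AUX1 had 188 and 191 CPM in BL-treated dwf4, against 144 and 126 CPM in untreated dwf4. Both rose, by 0.50 and 0.49 on the log2 scale. The count of carriers called higher was 3, 2, 3 and 5 without the same 4 libraries in turn, and that of carriers called lower was 1, 1, 2 and 1. Of 31 tested SAUR genes, a large family that encodes small auxin-induced proteins, 5 rose and 2 fell. Together this was 22.6%, against 13.3% of all loci tested. SAUR78 had 47.4 and 44.7 CPM in BL-treated dwf4, against 27.1 and 24.8 CPM in untreated dwf4 (log2 fold change 0.83, adjusted p = 0.000437) and SAUR52 had 1.57 and 2.47 CPM in BL-treated dwf4, against 8.94 and 6.61 CPM in untreated dwf4 (log2 fold change -1.93, adjusted p = 0.00206). Among SAUR genes 3, 2, 6 and 5 were called higher and 1, 1, 1 and 4 lower in the same order of libraries left out.

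In ethylene synthesis 3 of the 10 genes tested rose and 2 fell. ACS enzymes catalyse the rate-limiting step of the pathway. ACS11 had 0.472 and 0.363 CPM in BL-treated dwf4, against 6.25 and 16.5 CPM in untreated dwf4 (log2 fold change -4.73, SE 0.629, adjusted p = 0.00206). This was the deepest fall among genes with a symbol and at least 2 CPM. The 2 untreated libraries differed over 2-fold and both lay above the 3.93 and 5.45 CPM of wild type. ACS9 had 25.0 and 18.8 CPM in BL-treated dwf4, against 2.45 and 1.00 CPM in untreated dwf4 (log2 fold change 3.64, SE 0.396, adjusted p = 0.000831) and ACS5 had 16.6 and 11.5 CPM in BL-treated dwf4, against 1.98 and 2.26 CPM in untreated dwf4 (log2 fold change 2.72, SE 0.234, adjusted p = 0.000242). ACS6 was called higher at 83.7 and 99.4 CPM in BL-treated dwf4, against 31.9 and 62.2 CPM in untreated dwf4, but its adjusted p of 0.0326 became 0.0753 without BL-treated replicate 1 and 0.144 without BL-treated replicate 2.

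In the gibberellin list 3 of 17 tested genes rose and 2 fell. GA2OX8, an enzyme that inactivates gibberellins, had 10.9 and 8.14 CPM in BL-treated dwf4, against 0.712 and 0.335 CPM in untreated dwf4 (log2 fold change 4.15, SE 0.322, adjusted p = 0.000166), the largest rise among genes with a symbol and at least 2 CPM. GA20OX2, an enzyme of synthesis, had 4.25 and 4.36 CPM in BL-treated dwf4, against 14.7 and 10.8 CPM in untreated dwf4 (log2 fold change -1.57, SE 0.183, adjusted p = 0.00112), with wild type at 5.77 and 5.97 CPM near the BL-treated values. GAI, a DELLA repressor of gibberellin responses, had 18.241 and 20.2 CPM in BL-treated dwf4, against 33.0 and 31.1 CPM in untreated dwf4 (log2 fold change -0.74, SE 0.0878, adjusted p = 0.00124). GA2OX1 and GA2OX6 were the other members called higher. Neither call held without BL-treated replicate 1 (adjusted p 0.066 and 0.201) or BL-treated replicate 2 (0.0573 and 0.0712), and that of GA2OX1 also ended without untreated replicate 1 (0.0711). NCED9, of abscisic acid synthesis, had 5.50 and 5.23 CPM in BL-treated dwf4, against 0.475 and 1.00 CPM in untreated dwf4 (log2 fold change 2.86, adjusted p = 0.000736).

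Of 9 type-A cytokinin response regulators, which dampen the hormone's signal, 1 was called lower and 1 higher. Together this was 22.2%, against 13.3% of all loci tested. ARR3 had 7.23 and 5.81 CPM in BL-treated dwf4, against 37.0 and 26.6 CPM in untreated dwf4 (log2 fold change -2.29, SE 0.184, adjusted p = 0.000181), and wild type had 14.7 and 13.4 CPM. ARR9 was called higher at 0.30 with an adjusted p of 0.0495, and this call ended without BL-treated replicate 1 (adjusted p = 0.239), untreated replicate 1 (0.0809) or untreated replicate 2 (0.106), and with library totals in place of TMM factors. Without BL-treated replicates 1 and 2 and untreated replicates 1 and 2 in turn, 0, 2, 0 and 3 regulators were called higher and 1, 1, 1 and 3 lower. Of 9 genes of cytokinin synthesis and oxidation, 1 was called higher and 3 lower, but at most 1 higher and 2 lower in those 4 fits. The oxidase gene CKX4 had the deepest fall of the list (log2 fold change -0.90, adjusted p = 0.03), and its adjusted p was 0.151 without BL-treated replicate 1, 0.0512 without untreated replicate 1 and 0.0735 without untreated replicate 2. CKX1, another oxidase gene, was the member called higher (log2 fold change 0.95, adjusted p = 0.0199), and not without BL-treated replicate 1 (0.0966), BL-treated replicate 2 (0.0671) or untreated replicate 2 (0.0649).

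Of the 18 tested jasmonate genes, none was called higher and 1 lower, AOC2 (log2 fold change -0.88, adjusted p = 0.0478), whose call ended without BL-treated replicate 2 (0.188), untreated replicate 1 (0.125) or untreated replicate 2 (0.0521). Without untreated replicate 2, 2 jasmonate genes were called higher. For touch, wounding and heat, 12 genes were tested and 1, HSP70, was called lower (log2 fold change -0.52, adjusted p = 0.0463), a call that ended without BL-treated replicate 1 (0.145), BL-treated replicate 2 (0.171) or untreated replicate 1 (0.156). In this list 1 gene was called higher without untreated replicate 1, and 3 were called higher and 3 lower without untreated replicate 2. The summed level of the touch, wounding and heat genes was 618 and 598 CPM in BL-treated dwf4, against 710.0 and 674 CPM in untreated dwf4. Untreated wild type had 392 and 336 CPM. The shares called were 5.56% for the jasmonate list and 8.33% for the touch, wounding and heat list, against 13.3% of all loci tested.

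Several genes of the root stem cell region fell. PLETHORA proteins are transcription factors that maintain the root meristem, and 3 of 6 genes fell and none rose. PLT3 had 26.1 and 24.3 CPM in BL-treated dwf4, against 80.9 and 90.3 CPM in untreated dwf4 (log2 fold change -1.76, SE 0.0813, adjusted p = 2.73e-05), PLT2 had 6.29 and 5.16 CPM in BL-treated dwf4, against 17.3 and 13.7 CPM in untreated dwf4 (log2 fold change -1.44, SE 0.163, adjusted p = 0.000993) and PLT1 had 7.31 and 8.21 CPM in BL-treated dwf4, against 15.3 and 14.1 CPM in untreated dwf4 (log2 fold change -0.92, SE 0.138, adjusted p = 0.00382). For each, both BL-treated values lay below wild type, which had 48.1 and 48.6, 10.9 and 10.5 and 13.3 and 11.3 CPM in the same order. BBM, another member, was at -0.95 on the log2 scale and missed the threshold (adjusted p = 0.0545). Together the 6 genes had 51.0 and 49.7 CPM in BL-treated dwf4, against 129 and 136 CPM in untreated dwf4 and 85.6 and 82.2 CPM in untreated wild type.

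FEZ, which promotes the divisions that renew the root cap, had 0.393 and 0.799 CPM in BL-treated dwf4, against 4.12 and 5.02 CPM in untreated dwf4 (log2 fold change -2.90, SE 0.325, adjusted p = 0.000958). MYB56, also known as BRAVO, a repressor of quiescent centre divisions, had 6.13 and 6.47 CPM in BL-treated dwf4, against 25.2 and 22.8 CPM in untreated dwf4 (log2 fold change -1.93, SE 0.114, adjusted p = 4.63e-05), with wild type between at 14.9 and 15.2 CPM. Of 14 tested genes of the stem cell and root cap list, 6 were called lower and 1 higher. The count of fallers was 2, 2, 3 and 3 and that of risers 0, 0, 0 and 1 without BL-treated replicates 1 and 2 and untreated replicates 1 and 2 in turn. FEZ and MYB56 were called lower in each of these fits. Outside this list, HB4, a homeodomain factor, and CLE2, a signalling peptide, were lower too. HB4 had 0.865 and 0.436 CPM in BL-treated dwf4, against 2.93 and 4.27 CPM in untreated dwf4 (log2 fold change -2.46, adjusted p = 0.00389), while CLE2 had 3.38 and 2.18 CPM in BL-treated dwf4, against 9.10 and 8.62 CPM in untreated dwf4 (log2 fold change -1.68, adjusted p = 0.00186).

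Of 25 cell cycle genes 2 were called higher and 2 lower, together 16% against 13.3% of all loci tested, and of 12 replication licensing genes 1 was called higher (8.33%). KRP2, an inhibitor of cyclin-dependent kinases, had 15.3 and 15.5 CPM in BL-treated dwf4, against 27.5 and 22.7 CPM in untreated dwf4 (log2 fold change -0.70, SE 0.115, adjusted p = 0.0056). The other calls were small, and each ended without BL-treated replicate 1 and without untreated replicate 1. Those of CYCD3;3, AUR1 and CDC6 also ended without BL-treated replicate 2, and that of AUR1 without untreated replicate 2. They were CYCD3;3, a cyclin (-0.37 on the log2 scale, adjusted p 0.174 without BL-treated replicate 1), AUR1, a mitotic kinase (0.35, 0.0832), LGO, a kinase inhibitor (0.42, 0.0935), and CDC6, a licensing factor (0.50, 0.0602). Together the 25 cell cycle genes had 576 and 592 CPM in BL-treated dwf4, against 568 and 592 CPM in untreated dwf4 and 652 and 629 CPM in untreated wild type. The dwf4 groups overlapped, and both wild-type values lay above them.

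Of 13 regulators of epidermal cell fate and root hairs, 2 were called higher and 3 lower. The call of MYC1, 1 of those lower, ended without BL-treated replicate 1, BL-treated replicate 2 or untreated replicate 1. WER, which specifies non-hair cells, had 36.2 and 41.0 CPM in BL-treated dwf4, against 19.1 and 16.1 CPM in untreated dwf4 (log2 fold change 1.13, SE 0.124, adjusted p = 0.00084), and MYB23, its relative in the same cells, had 11.6 and 14.1 CPM in BL-treated dwf4, against 3.72 and 4.77 CPM in untreated dwf4 (log2 fold change 1.60, SE 0.18, adjusted p = 0.000989). RSL1 and RSL2 are factors of the root hair programme, with 0.944 and 1.67 CPM of RSL1 in BL-treated dwf4, against 4.35 and 4.02 CPM in untreated dwf4 (log2 fold change -1.66, adjusted p = 0.00604), and 5.98 and 3.78 CPM of RSL2 in BL-treated dwf4, against 10.9 and 11.9 CPM in untreated dwf4 (log2 fold change -1.23, adjusted p = 0.0049). Of 14 genes of root hair growth and wall, 7 were called higher and none lower. LRX2, a wall protein, had 132 and 126 CPM in BL-treated dwf4, against 67.6 and 75.0 CPM in untreated dwf4 (log2 fold change 0.86, SE 0.0689, adjusted p = 0.000184), and RHD4, a lipid phosphatase, had 165 and 160.0 CPM in BL-treated dwf4, against 119 and 123 CPM in untreated dwf4 (log2 fold change 0.43, adjusted p = 0.00194). The count called higher was 2, 7, 6 and 4 without BL-treated replicates 1 and 2 and untreated replicates 1 and 2 in turn. The summed level of these 14 genes was 1759.5 and 1482 CPM in BL-treated dwf4, against 1291 and 1375 CPM in untreated dwf4 and 1071 and 1037 CPM in untreated wild type, so BL-treated replicate 1 was the high library.

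Endodermal genes of the Casparian strip, the wall barrier between the outer root and the vascular tissue, were called higher in 6 of 8 and lower in none. MYB36, the factor that switches on strip formation, had 30.5 and 27.7 CPM in BL-treated dwf4, against 19.2 and 19.2 CPM in untreated dwf4 (log2 fold change 0.60, SE 0.0983, adjusted p = 0.00585). The count was 3, 4, 4 and 6 in the same order of libraries left out. Of 13 suberin genes none was called higher and 1 lower, FAR5 (log2 fold change -0.30, adjusted p = 0.033), which was not called without BL-treated replicate 1 (0.0781), BL-treated replicate 2 (0.157) or untreated replicate 1 (0.133). Of 12 xylem genes none was called by edgeR, DESeq2 or limma-voom, and 2 had an unadjusted p under 0.05. Their log2 fold changes lay between -0.10 and 0.39. Of 10 phloem genes 1 rose, SMXL5, with 45.0 and 39.6 CPM in BL-treated dwf4, against 28.8 and 30.0 CPM in untreated dwf4 (log2 fold change 0.52, adjusted p = 0.00733). For photosynthesis, a mark of green tissue, 1 of 10 genes was called higher, and its sum was 213 and 219.7 CPM in BL-treated dwf4, against 154 and 199.8 CPM in untreated dwf4 and 166 and 159.6 CPM in untreated wild type. That gene, CAB1, was at 0.53 (adjusted p = 0.0451) and was not called with library totals, or without BL-treated replicate 1 (0.0844), BL-treated replicate 2 (0.199) or untreated replicate 1 (0.172). Without untreated replicate 2, 3 photosynthesis genes were called higher.

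**Figure D3:**
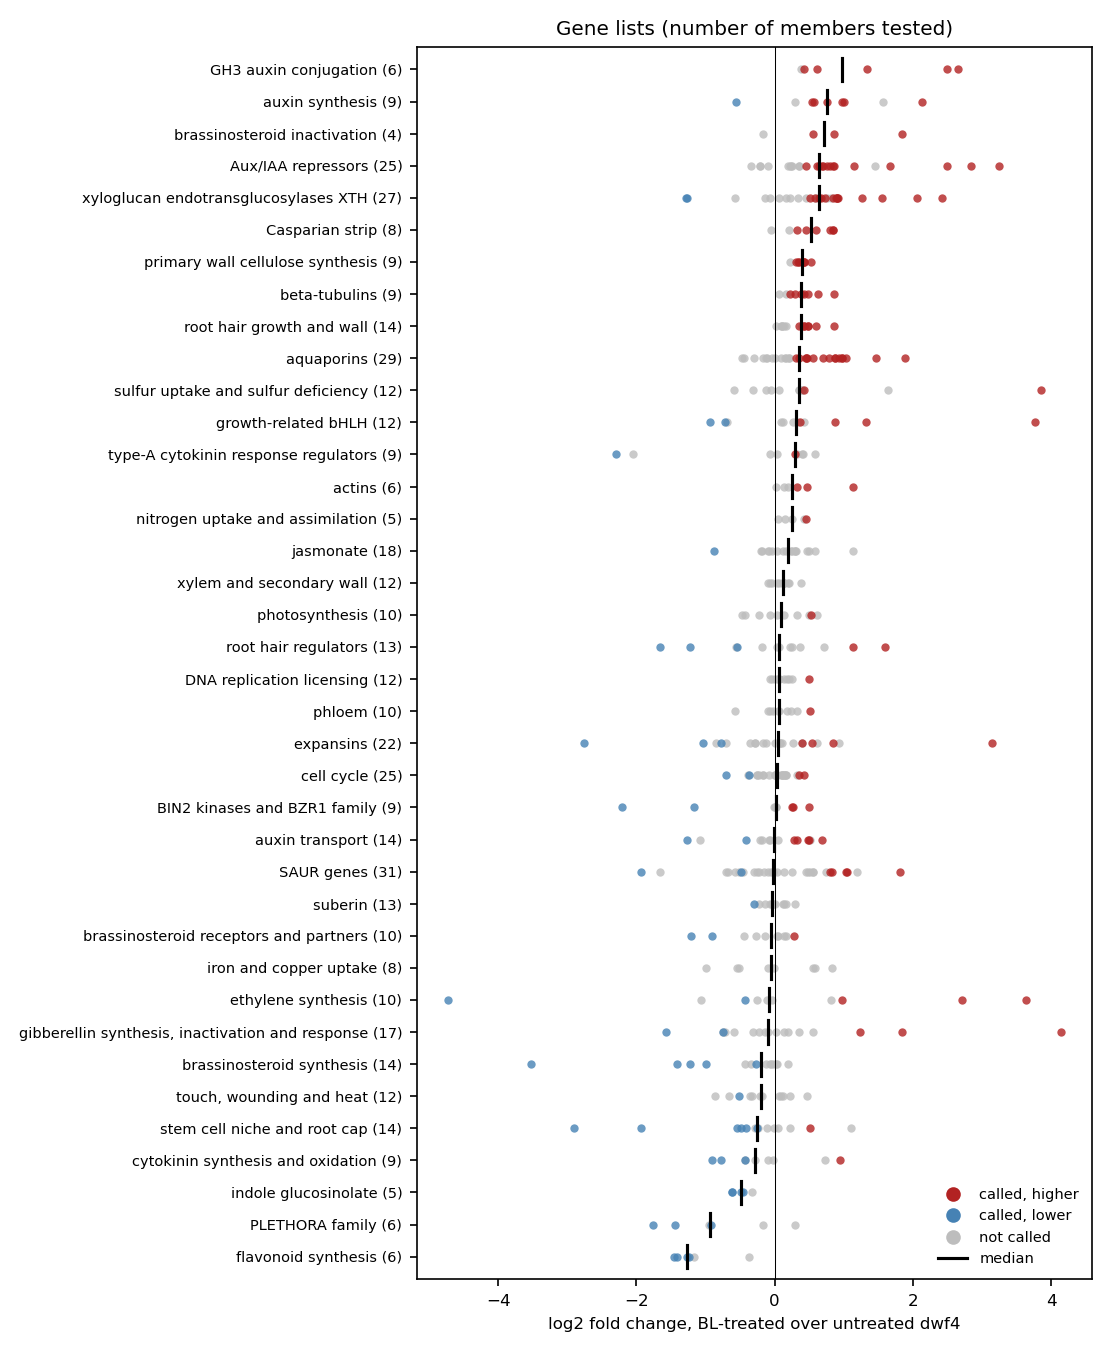
Log2 fold change of BL-treated over untreated dwf4 (x axis) for the tested members of 38 gene lists (y axis, ordered by median, with the number tested in brackets). Red points were called higher, blue points lower and grey points neither, and the black bar is the median. The lists at the top hold auxin, brassinosteroid inactivation and wall genes, with medians up to 0.98, and flavonoid synthesis stands at the bottom with -1.26.

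Many genes of cell walls and water channels rose. Xyloglucan endotransglucosylases (XTH) cut and rejoin wall polymers. Of 27 tested XTH genes, 14 rose and 2 fell. XTH33 had 15.9 and 13.5 CPM in BL-treated dwf4, against 3.403 and 2.01 CPM in untreated dwf4 (log2 fold change 2.43, SE 0.218, adjusted p = 0.000311), XTH16 had 55.2 and 66.4 CPM in BL-treated dwf4, against 14.2 and 14.9 CPM in untreated dwf4 (log2 fold change 2.06, SE 0.138, adjusted p = 8.99e-05) and XTH17 had 134 and 124 CPM in BL-treated dwf4, against 38.8 and 48.8 CPM in untreated dwf4 (log2 fold change 1.56, SE 0.107, adjusted p = 0.000101). The genes that fell were XTH24 and XTH32. XTH24 had 81.1 and 68.9 CPM in BL-treated dwf4, against 134 and 228 CPM in untreated dwf4 (log2 fold change -1.27, adjusted p = 0.00554), its untreated libraries being far apart, and XTH32 had 4.09 and 4.72 CPM in BL-treated dwf4, against 12.3 and 9.20 CPM in untreated dwf4 (log2 fold change -1.28, adjusted p = 0.00288). XTH24 was not called when the spread was estimated robustly (adjusted p = 0.102). Added up, the family had 2289 and 2196 CPM in BL-treated dwf4, against 1284 and 1636 CPM in untreated dwf4 and 1463 and 1507 CPM in untreated wild type.

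Expansins, which loosen walls, divided. With BL 4 of the 22 tested rose and 3 fell. EXLA2, an expansin-like gene, had 29.1 and 29.0 CPM in BL-treated dwf4, against 2.69 and 3.85 CPM in untreated dwf4 (log2 fold change 3.15, SE 0.157, adjusted p = 2.73e-05), with wild type between at 9.05 and 8.04 CPM. EXPA10 had 0.865 and 0.944 CPM in BL-treated dwf4, against 7.28 and 5.02 CPM in untreated dwf4 (log2 fold change -2.75, SE 0.288, adjusted p = 0.000676), EXPA9 had 61.9 and 63.3 CPM in BL-treated dwf4, against 152 and 104 CPM in untreated dwf4 (log2 fold change -1.03, adjusted p = 0.004) and EXPA11 had 31.3 and 37.2 CPM in BL-treated dwf4, against 59.7 and 57.9 CPM in untreated dwf4 (log2 fold change -0.78, adjusted p = 0.00163), so all 3 went the other way. The call of EXPA9 ended under robust estimation of the spread (adjusted p = 0.0536). The count of expansins called higher was 1, 2, 4 and 3 and that of those called lower 4, 3, 3 and 6 without BL-treated replicates 1 and 2 and untreated replicates 1 and 2 in turn.

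Of 9 genes for primary wall cellulose synthesis, 8 rose and none fell, with changes that were small and close together. The extremes of the list were 0.23 and 0.53 on the log2 scale. CSI1, which links the cellulose synthase to microtubules, had 313 and 346 CPM in BL-treated dwf4, against 222 and 235 CPM in untreated dwf4 (log2 fold change 0.53, SE 0.0652, adjusted p = 0.00148), and CESA1, a catalytic subunit, had 782 and 822 CPM in BL-treated dwf4, against 618 and 602 CPM in untreated dwf4 (log2 fold change 0.40, SE 0.052, adjusted p = 0.00198). Their sum was 4025 and 4150.3 CPM in BL-treated dwf4, against 3158 and 3119 CPM in untreated dwf4 and 3516 and 3656 CPM in untreated wild type. Of 9 beta-tubulin genes 7 rose, led by TUB8 with 182 and 207 CPM in BL-treated dwf4, against 111 and 104 CPM in untreated dwf4 (log2 fold change 0.86, SE 0.074, adjusted p = 0.000242), and of 6 actin genes 3 rose, led by ACT11 with 65.7 and 71.1 CPM in BL-treated dwf4, against 29.1 and 33.6 CPM in untreated dwf4 (log2 fold change 1.13, SE 0.0856, adjusted p = 0.000154). Neither family had a member that fell. For the 9 lists with no member called higher and the 16 with none called lower, DESeq2 and limma-voom also called 0 members in that direction, and 6 and 3 members had an unadjusted p under 0.05. Fits without 1 of the untreated libraries did call members in that direction in the jasmonate, touch, iron and copper, sulfur and aquaporin lists, as given with each. Members of such families resemble each other, and reads that aligned to more than 1 place were 8.59% to 9.35% in the 4 libraries. Such reads stood on a line of their own in the counts and were assigned to no gene. The part lost from each family was not tested.

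Aquaporins are channels for water in the plasma membrane (PIP) and the vacuole membrane (TIP). Of 29 tested genes, 16 rose and none fell, though 1 was called lower without untreated replicate 2. TIP2;1 had 469 and 435 CPM in BL-treated dwf4, against 136 and 109 CPM in untreated dwf4 (log2 fold change 1.89, SE 0.102, adjusted p = 2.93e-05). PIP2E had 26.3 and 26.7 CPM in BL-treated dwf4, against 9.26 and 9.87 CPM in untreated dwf4 (log2 fold change 1.47, SE 0.098, adjusted p = 8.96e-05), and PIP2;7 had 769 and 775 CPM in BL-treated dwf4, against 387 and 395 CPM in untreated dwf4 (log2 fold change 0.98, SE 0.0495, adjusted p = 2.73e-05). In each case the BL-treated values lay above both untreated dwf4 and wild type, which had 157 and 142, 17.2 and 16.5 and 444 and 455 CPM of the 3 genes. Aquaporin transcripts added up to 9264 and 9059.6 CPM in BL-treated dwf4, against 5782 and 6205 CPM in untreated dwf4 and 6537 and 6642 CPM in untreated wild type. HA2, the main proton pump of the root plasma membrane, rose to 2852 and 2982 CPM in BL-treated dwf4, against 2158 and 2138 CPM in untreated dwf4 (log2 fold change 0.44, adjusted p = 0.00112), still under the 3925 and 3854 CPM of wild type.

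Metabolic genes changed in both directions. For flavonoid synthesis 4 of 6 genes fell and none rose, in each fit that left out 1 library as well. TT4, the chalcone synthase that opens the pathway, had 151 and 154 CPM in BL-treated dwf4, against 428 and 404 CPM in untreated dwf4 (log2 fold change -1.45, SE 0.0765, adjusted p = 2.81e-05). TT7, a hydroxylase, had 7.78 and 9.52 CPM in BL-treated dwf4, against 24.0 and 22.1 CPM in untreated dwf4 (log2 fold change -1.41, adjusted p = 0.000568), and FLS1, the flavonol synthase, had 38.3 and 41.7 CPM in BL-treated dwf4, against 108 and 85.1 CPM in untreated dwf4 (log2 fold change -1.27, adjusted p = 0.000425). Over the list the sum was 225 and 234 CPM in BL-treated dwf4, against 619 and 561 CPM in untreated dwf4 and 710.1 and 612 CPM in untreated wild type, so untreated dwf4 stood near wild type and the BL-treated libraries below both.

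For indole glucosinolates, defence compounds made from tryptophan, 4 of 5 genes fell and none rose. CYP79B2, the first enzyme, had 359 and 262 CPM in BL-treated dwf4, against 458 and 496 CPM in untreated dwf4 (log2 fold change -0.62, adjusted p = 0.0133), and CYP83B1, the next, had 466 and 337 CPM in BL-treated dwf4, against 590.0 and 643 CPM in untreated dwf4 (log2 fold change -0.62, adjusted p = 0.0171). BL-treated replicate 1 was nearer to the untreated libraries than replicate 2 in both, and without BL-treated replicate 2 the count was 2, with CYP79B3 at an adjusted p of 0.0591 and MYB34, a regulator, at 0.0938. With robust estimation of the spread neither CYP79B2 (0.0668) nor CYP83B1 (0.0941) was called. PYK10, an abundant glucosidase of endoplasmic reticulum bodies, had 6688 and 6129 CPM in BL-treated dwf4, against 7909 and 8116 CPM in untreated dwf4 (log2 fold change -0.32, adjusted p = 0.0133), a call that ended without BL-treated replicate 2 (0.0576). JAL34, a lectin, had 1185 and 1082 CPM in BL-treated dwf4, against 1930.5 and 1779 CPM in untreated dwf4 (log2 fold change -0.71, adjusted p = 0.000319).

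The 5 largest rises and the 5 largest falls in CPM included genes of amino acid metabolism. ERD5, a proline dehydrogenase, had 622 and 545 CPM in BL-treated dwf4, against 109 and 113 CPM in untreated dwf4 (log2 fold change 2.40, SE 0.105, adjusted p = 2.6e-05). The untreated dwf4 values were close to the 139 and 112 CPM of wild type. ASN1, an asparagine synthetase, had 35.2 and 22.3 CPM in BL-treated dwf4, against 5.62 and 2.76 CPM in untreated dwf4 (log2 fold change 2.76, SE 0.35, adjusted p = 0.00164). GSR2, a cytosolic glutamine synthetase, had 1275 and 1207 CPM in BL-treated dwf4, against 703 and 740.1 CPM in untreated dwf4 (log2 fold change 0.78, adjusted p = 0.00042), and GLT1, a glutamate synthase, had 2106 and 2102 CPM in BL-treated dwf4, against 1448 and 1478 CPM in untreated dwf4 (log2 fold change 0.52, adjusted p = 0.00043). For GSR2 wild type was higher than either, at 2875 and 2494 CPM. ADC2, an arginine decarboxylase of polyamine synthesis, had 904 and 823 CPM in BL-treated dwf4, against 1916 and 1966 CPM in untreated dwf4 (log2 fold change -1.17, SE 0.0649, adjusted p = 3.25e-05). ATMS1, a methionine synthase, had 3516 and 3699 CPM in BL-treated dwf4, against 4613 and 4435 CPM in untreated dwf4 (log2 fold change -0.33, adjusted p = 0.00691), a small fold on an abundant transcript. DOX1, a fatty acid dioxygenase, had 397 and 432 CPM in BL-treated dwf4, against 1211 and 1020.4 CPM in untreated dwf4 (log2 fold change -1.43, adjusted p = 0.000104).

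Sulfur uptake had 1 strong change. SULTR1;1, a high-affinity sulfate transporter of roots, had 26.6 and 23.0 CPM in BL-treated dwf4, against 2.06 and 1.34 CPM in untreated dwf4 (log2 fold change 3.85, SE 0.191, adjusted p = 2.73e-05), and untreated dwf4 stood at the wild-type level of 2.24 and 2.46 CPM. APR2, a sulfate-reducing enzyme, rose less (log2 fold change 0.43, adjusted p = 0.00914). The other 10 tested members of the list did not pass the test. Of all 12, 4 were called higher without untreated replicate 1, and 2 higher and 3 lower without untreated replicate 2. None of 8 tested genes of the iron and copper uptake list passed with edgeR, DESeq2 or limma-voom, and 3 had an unadjusted p under 0.05. Without untreated replicate 1, 1 was called lower, and without untreated replicate 2, 1 was called higher. FRU, also known as FIT, a transcription factor that switches on iron uptake, was not counted in the list because its listed name did not match the annotation. It had 26.7 and 32.9 CPM in BL-treated dwf4, against 15 and 16.1 CPM in untreated dwf4, and rose (log2 fold change 0.94, SE 0.116, adjusted p = 0.00147), with wild type at 38.5 and 40.1 CPM. For nitrogen 1 of 5 was called, NIR1, the nitrite reductase (log2 fold change 0.46, adjusted p = 0.0353), and not without BL-treated replicate 1 (adjusted p = 0.103) or BL-treated replicate 2 (0.134). In that list 2 genes were called higher without untreated replicate 1 and 2 without untreated replicate 2.

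The remaining genes among the 12 largest rises and 12 largest falls had varied roles. PERK4, a receptor-like kinase, had 12.7 and 11.8 CPM in BL-treated dwf4, against 1.42 and 0.920 CPM in untreated dwf4 (log2 fold change 3.37, adjusted p = 0.000104), and LPAT3, an acyltransferase of lipid synthesis, had 6.21 and 6.25 CPM in BL-treated dwf4, against 0.950 and 1.00 CPM in untreated dwf4 (log2 fold change 2.66, adjusted p = 0.00154). MYB55, a transcription factor, had 3.77 and 2.69 CPM in BL-treated dwf4, against 23.5 and 24.0 CPM in untreated dwf4 (log2 fold change -2.88, adjusted p = 2.81e-05), with wild type between at 12.8 and 13.6 CPM. DES-1-LIKE, a desaturase-like gene, was at 0.236 and 0.363 CPM in BL-treated dwf4, close to the limit of counting, against 4.75 and 3.85 CPM in untreated dwf4 (log2 fold change -3.79, adjusted p = 0.000699). NPC2, a phospholipase, BGAL7, a beta-galactosidase, and RTFL15, a small peptide, also fell, with log2 fold changes of -2.27, -2.26 and -1.94. BGAL7 had 3.15 and 1.89 CPM in BL-treated dwf4, against 12.2 and 11.8 CPM in untreated dwf4, and the 2.24 and 2.79 CPM of wild type stood with the BL-treated values.

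**Figure D4:**
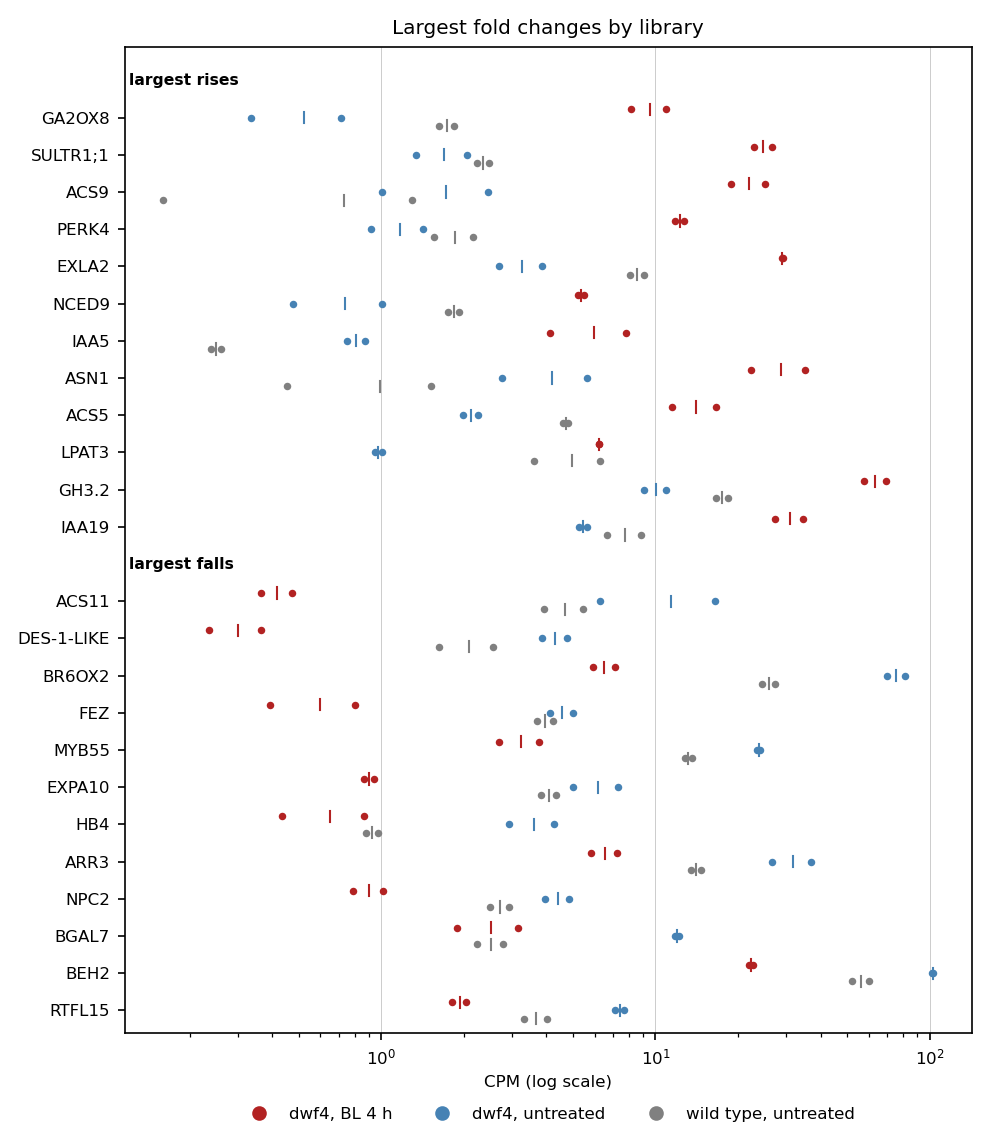
CPM (x axis, log scale) of the 12 largest rises and the 12 largest falls by fold change, among called genes with a symbol and a mean of at least 2 CPM, in each library of BL-treated dwf4 (red), untreated dwf4 (blue) and untreated wild type (grey). Points are libraries and bars means of 2. The red and blue points of each gene do not overlap, as the choice of genes required.

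The BL response of dwf4 was then set beside that of Col-0, BL-treated against mock-treated, in which 2675 of 20644 loci (13.0%) were called. These share no libraries. Of 19502 loci tested in both, 2600 were called in dwf4 and 2646 in Col-0, and 1251 were called in both with the same direction, which is 48.1% of the dwf4 calls and 47.3% of the Col-0 calls. Another 3 were called in opposite directions. Across loci the log2 fold changes correlated at r = 0.61, as a description, since loci are not independent replicates. Of the 1251 shared calls, 1103 had the larger fold change in dwf4. The estimated spread between libraries was wider in the dwf4 fit (common coefficient of variation 0.0723) than in the Col-0 fit (0.0483). A call in dwf4 thus tended to need a larger fold change. Choosing loci by their calls tilts this count toward dwf4, so it cannot be read as a stronger response. Read length, and the use of untreated or mock-treated roots as the baseline, differ along with the genotype, so these cannot be told apart from it.

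A test of the difference between the responses in all 18 libraries called 191 of 20393 loci (0.937%), 129 upward (0.633%) and 62 downward (0.304%) in dwf4 relative to Col-0. The count ran from 70 to 629 when 1 library was left out. Of 42 described genes with a called difference, 13 were called in each of the 8 fits that left out 1 library. They were BR6OX2, CPD, CYP90D1, BEH2, IAA11, IAA19, GH3.2, GA2OX8, EXLA2, XTH16, XTH17, TIP2;1 and ERD5. BR6OX2 had a log2 fold change of -3.53 in dwf4 and -1.37 in Col-0 (difference -2.16, SE 0.199, adjusted p = 3.35e-05), with 9.14 and 11.4 CPM in BL-treated Col-0, against 25.0 and 26.7 CPM in mock-treated Col-0. CYP90D1 fell in dwf4 (-1.23) and was at -0.02 in Col-0 (adjusted p = 0.941), where it had 27.3 and 35.8 CPM in BL-treated Col-0, against 29.5 and 33.0 CPM in mock-treated Col-0 (difference -1.21, SE 0.172, adjusted p = 0.00174). BEH2 fell in both, with log2 fold changes of -2.20 in dwf4 and -0.94 in Col-0 (difference -1.27, SE 0.0994, adjusted p = 8.51e-06).

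EXLA2 rose in both, by 3.15 in dwf4 and 1.32 in Col-0 (difference 1.84, SE 0.176, adjusted p = 4.23e-05), with 25.3 and 23.7 CPM in BL-treated Col-0, against 9.73 and 9.92 CPM in mock-treated Col-0. GH3.2 rose by 2.66 in dwf4 and 0.99 in Col-0 (difference 1.67, SE 0.163, adjusted p = 4.68e-05). GA2OX8 rose by 4.15 in dwf4 and 1.57 in Col-0 (difference 2.59, SE 0.411, adjusted p = 0.00438), with 6.53 and 5.81 CPM in BL-treated Col-0, against 2.15 and 2.07 CPM in mock-treated Col-0. TIP2;1, XTH16, XTH17 and ERD5 rose in both and more in dwf4, with differences of 0.90, 1.4, 1.12 and 1.15 on the log2 scale. Genes whose difference did not pass the test included DWF4 (difference -0.40, SE 0.114, adjusted p = 0.125), BRI1 (difference -0.32, SE 0.125, adjusted p = 0.307), PLT2 (difference -0.30, SE 0.294, adjusted p = 0.772) and ACS11 (difference -2.93, SE 0.923, adjusted p = 0.183), which does not show that they responded alike.

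**Figure D5:**
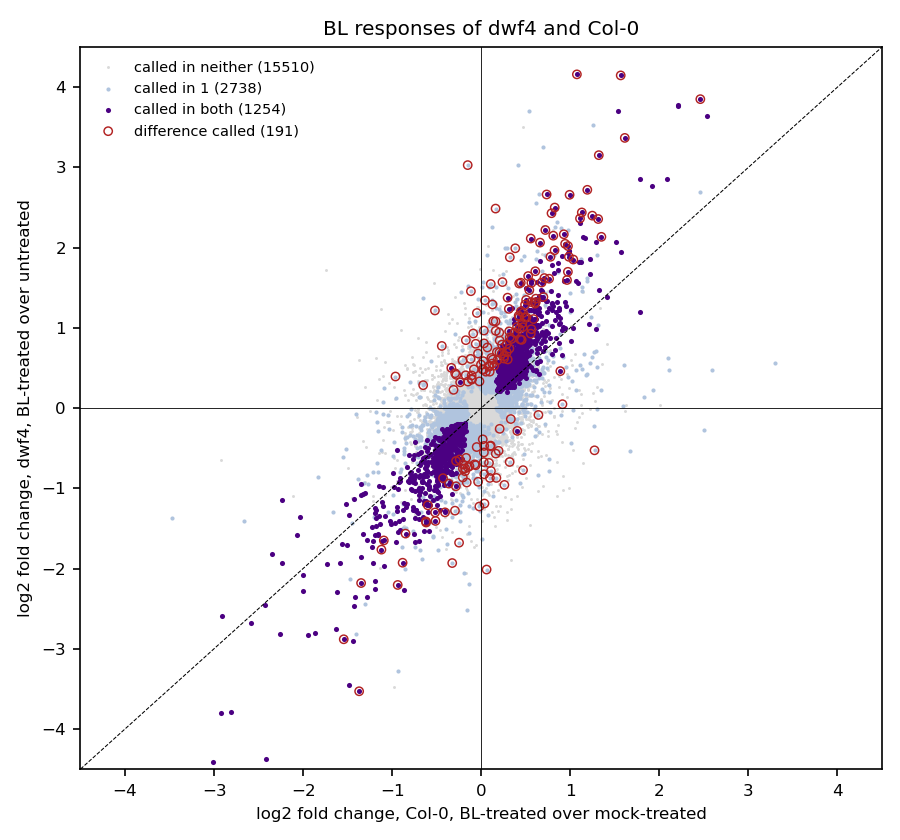
Log2 fold change with BL in dwf4 (y axis, BL-treated over untreated) against Col-0 (x axis, BL-treated over mock-treated), 1 point per locus tested in both. Purple points were called in both (1254), pale blue in 1 (2738) and grey in neither (15510), and red rings mark the 191 loci with a called difference. Points run along the dashed line of equal change. Most purple points lie farther from 0 in dwf4, which the choice of points by their calls favours. Axes end at 4.5, beyond which 3 loci lie.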

How the data were processed

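Per the labels' protocols, total RNA from root tip sections was made into TruSeq libraries. The authors deposited raw whole-number read counts per locus. TAIR10 was the genome build and TopHat 1.4.0, Bowtie and HTSeq the tools, per the submitters' processing notes. Annotation release and strand setting were not given in the sources used here, so reads of overlapping or antisense genes cannot be told apart. Lines for reads assigned to no gene (11.35% to 12.05% of reads in the 4 dwf4 libraries) were left out.

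Tests used edgeR (4.0.16, R 4.3.3): TMM factors, filterByExpr (minimum count 10, total 15), 1 coefficient per group, the quasi-likelihood test and Benjamini-Hochberg adjustment at 0.05. The dwf4 contrast was fitted on the 6 libraries of 36 bp, Col-0 on the 12 of 101 bp, and their difference on all 18. Fold changes are log2 with a prior count of 0.125. The fit was tested on simulated data. Where the simulated spread was uneven between genes, more of the simulated dwf4 calls were false than the nominal share, nearly all at the most variable genes. Calls of genes whose replicates stand apart are therefore less sure. Fewer loci were changed in the simulation than were called here, so its share of false calls cannot be read as that of these data. Robust estimation of the spread, added after seeing the data, left the simulated share about the same. DESeq2 1.42.0, limma-voom (limma 3.58.1), other scalings, no filter, other sample sets, the replicate block and left-out libraries were alternatives, and list counts without each library were added after seeing the data. A locus without reads could have been present at up to 3 counts (0.219 to 0.255 CPM in dwf4), which, like the intervals, covers counting error only.

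Symbols and promoters came from the TAIR10.1 RefSeq annotation (32835 of 33602 loci matched). Of 584 loci in 38 lists, 481 were tested. Members and lists were chosen with earlier results of these data known. Named genes were the 12 largest rises and falls by fold and the 5 by CPM (with a symbol, at least 2 CPM on average and groups apart), members of the brassinosteroid, bHLH and PLETHORA lists, up to 6 called members of each other list, and the 5 largest differences each way. KIB1, PRE2, PRE4, KRP4, SGN1 and FIT were not counted in the lists because the annotation gives these loci another name or none. Of these, FIT (FRU in the annotation) was called.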

Additional observations from a re-analysis of the deposited data

Results flagged for a closer look

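Among the genes described, 42 had a BL response in dwf4 that differed from that in Col-0 by the test of the difference itself (edgeR, adjusted p under 0.05 over 20393 loci). The differences are given on the log2 scale as the dwf4 minus the Col-0 fold change. Most of these genes were described because of their response in dwf4. Read length and the untreated or mock-treated baseline differ along with the genotype and cannot be told apart from it. Of the 42, 13 were called in each of the 8 fits that left out 1 library, and 29 lost the call in at least 1.

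The 13 were BR6OX2 (-2.16), BEH2 (-1.27), CYP90D1 (-1.21) and CPD (-0.79) among those lower in dwf4. Those higher in dwf4 were GA2OX8 (2.59), EXLA2 (1.84), IAA19 (1.68), GH3.2 (1.67), XTH16 (1.4), ERD5 (1.15), XTH17 (1.12), TIP2;1 (0.90) and IAA11 (0.73).

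Among the 29, differences for wall and water channel genes were XTH33 (1.64), LRX2 (0.42), PIP2E (0.93), PIP2;7 (0.42) and PIP2;4 (0.37). For the cytoskeleton they were ACT11 (0.62) and TUB8 (0.52). Auxin genes gave GH3.3 (2.33), GH3.1 (1.31), GH3.5 (0.74), PID (0.72), YUC3 (0.79) and SAUR52 (-1.61). Genes of other hormones gave BAS1 (0.83), BRL3 (-0.61), ACS5 (1.53), GAI (-0.59) and IPT7 (-1.25). Meristem and cell cycle genes gave PLT3 (-0.64), MYB56 (-1.05) and KRP2 (-0.63). The others were SULTR1;1 (1.39), PERK4 (1.76), LPAT3 (1.94), MYB55 (-1.34), GLT1 (0.43), DOX1 (-0.81), CLE2 (-1.44) and IGMT2 (-1.81). IGMT2, a methyltransferase of indole glucosinolates, was at -0.53 in dwf4 (adjusted p = 0.236) and rose in Col-0 (log2 fold change 1.27, adjusted p = 0.000146), where it had 8.19 and 12.3 CPM in BL-treated Col-0, against 4.42 and 3.77 CPM in mock-treated Col-0.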

How the results depend on the processing

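DESeq2 called 1668 loci (636 lower) and the 4 dwf4 libraries alone 1560 (949 higher, 611 lower), against 2602 (1537 higher, 1065 lower). A fit of all 18 libraries called 3988 (1691 lower). Leaving out 1 library gave 1323 to 2927 calls, 770 to 1719 higher, 500 to 1208 lower and 351 to 652 past 2-fold. For the difference between responses, no low-count filter gave 842 calls (494 higher, 348 lower), against 191 (129 and 62), and leaving out 1 library gave 70 to 629, 46 to 396 higher and 22 to 233 lower. The Col-0 count of 2675 ran from 1150 to 2350 without 1 library. Counts from library totals were 1367 higher and 1232 lower, with no ARR gene of type A and no photosynthesis gene called higher (0 each, against 1 each). Restricting to loci past 2-fold moved the promoter shares of CGTGTG or CGTGCG for fallers to 18% (12.4% of all called) and for risers to 4.86% (6.24% of all called).

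The labels do not say that equal replicate numbers belong together, and deviations of same-numbered BL-treated and untreated dwf4 libraries correlated at r = -0.139. With the replicate number as a block, 2151 loci were called in dwf4, 179 for the difference and 2476 in Col-0. Crossing the numbers of the BL-treated libraries, chosen after seeing the data, gave 2998. With robust estimation of the spread, added after seeing the data, 2847 loci were called (1666 higher, 1181 lower). Of the 168 described genes called in dwf4, DESeq2 lost 33, the 4 libraries alone 37, the replicate block 13, robust estimation 11, and leaving out 1 library 21 to 46, and no described gene reversed. The cause of these shifts was not tested. The share called was 4.96% under 2 CPM and 26.3% above 100 CPM, and the part of depth in this was not tested.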

Other observations

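Among loci without a symbol in the annotation, 1205 were called, against 1397 with one. AT3G54830, annotated as a transmembrane amino acid transporter, had 11.6 and 14.9 CPM in BL-treated dwf4, against 0.475 and 1.00 CPM in untreated dwf4 (log2 fold change 4.16, adjusted p = 0.000219). AT1G05660, annotated as a pectin lyase-like protein, had 30.2 and 35.8 CPM in BL-treated dwf4, against 7.28 and 7.61 CPM in untreated dwf4 (log2 fold change 2.15, adjusted p = 3.25e-05). The deepest fall of this kind with at least 2 CPM was that of AT5G57785, an uncharacterised protein, with 2.75 and 4.00 CPM in BL-treated dwf4, against 49.3 and 45.7 CPM in untreated dwf4 (log2 fold change -3.80, adjusted p = 8.41e-06). AT2G46850, annotated as a protein kinase, had 1.57 and 1.23 CPM in BL-treated dwf4, against 9.18 and 10.5 CPM in untreated dwf4 (log2 fold change -2.80, adjusted p = 0.000126). AT5G22580, annotated as a stress-responsive barrel domain protein, had 1.42 and 1.96 CPM in BL-treated dwf4, against 12.2 and 9.54 CPM in untreated dwf4 (log2 fold change -2.67, adjusted p = 0.000295). In each of these loci the BL-treated and untreated values did not overlap, as the choice of loci required.

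Among the 10 loci with the widest gaps between the 2 untreated libraries, 5 each way, were LTI78, SRO5, CYP94B3, LEA7, SPX1, PHI-1 and sks9. LTI78 (AT5G52310), a gene induced by cold and drought, had 102 and 117 CPM in BL-treated dwf4, against 286 and 58.9 CPM in untreated dwf4 (log2 fold change -0.66, adjusted p = 0.46). SRO5 (AT5G62520) had 43.9 and 20.8 CPM in BL-treated dwf4, against 2.53 and 26.0 CPM in untreated dwf4, and CYP94B3 (AT3G48520), an enzyme of jasmonate turnover, had 80.8 and 44.8 CPM in BL-treated dwf4, against 7.91 and 49.95 CPM in untreated dwf4. The 10 were chosen for the spread between the untreated libraries after their values were seen, and none passed the test of BL-treated against untreated dwf4.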
